A study of Mus musculus with 44 samples.

Results

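The insulin-like growth factor (IGF) axis was followed through 10 genes in bulk RNA-seq of mouse back skin: the ligands Igf1 and Igf2, the receptors Igf1r and Igf2r, and the binding proteins Igfbp2 to Igfbp7. The members were given by name as the listed ligands, receptors and binding proteins, and all 10 were found among the 43411 genes of the table. IGF1 and IGF2 are secreted peptides that act through the receptor tyrosine kinase IGF1R, while IGF2R carries IGF2 to the lysosome for degradation. The binding proteins hold the ligands outside the cell, where they prolong the life of the peptides, keep them from the receptor or release them after cleavage. IGFBP6 prefers IGF2 over IGF1, and IGFBP7 binds the ligands weakly and is often found around blood vessels. IGF1 is known as a growth and repair factor of skin, made by dermal cells, and IGF2 is known mainly from fetal tissue and regenerating muscle.

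The animals were female C57Bl/6 mice aged 8 weeks at the start. Every group was injected daily under the back skin with 100 uL: 10 mice received saline, 10 received bleomycin (1 U/mL) for 2 weeks and 10 received it for 4 weeks. A further 6 and 8 mice were left untreated for 6 and 10 weeks after the 4 weeks of bleomycin, a drug that breaks DNA and is injected in this model to produce skin fibrosis. The labels do not give the length of the saline course, so age at harvest and recovery cannot be told apart against saline, and 1 saline group served all 4 comparisons with saline. The groups are separate mice, and those harvested later were also older. Age therefore cannot be told apart from recovery, or from longer treatment, in comparisons between the bleomycin and recovery groups. Each value is a normalized count, a read count divided by the size factor of its library. A gene was called changed when it moved by more than 1.5-fold (0.585 on the log2 scale) with a Benjamini-Hochberg adjusted p below 0.05 in limma over 17037 genes. Adjusted p-values below are from that fit. Fold changes are on the scale of log2(normalized count + 1).

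The libraries held between 8509094 and 15285577 reads on genes (median 11310008). Within the 4-week bleomycin group, mice 1, 2 and 3 stood apart from the other 7: in 3331 of the 17037 genes (19.6%) their values did not overlap with those of the others, and they held 8509094 to 11082162 reads against 11278321 to 13902575. Among the IGF genes this separated Igfbp4 and Igfbp7. Saline mouse 1 and mouse 2 of the 2-week bleomycin group correlated least with their own groups (median r of 0.942 and 0.938), and saline mouse 1 also had the highest summed hair follicle markers (194268) of the saline group, where the median was 36771. Where a call on any of the 10 IGF genes changed without either set of animals, both values are given. For the other genes named below, not every such change is given. No marker in the table from the 10 cell type lists was at 0 throughout any group; the hair follicle markers Krt85 and Tchh were not analysed here. The tissue is a mixture, so fewer cells of a type and less RNA per cell cannot be told apart in any value below.

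Promoter windows are shown for the 3 members that were called in more than 1 comparison with saline: Igf2, Igfbp2 and Igfbp6. Each runs from 250 bases before to 50 bases after a RefSeq gene start on GRCm38.p6, and capitals mark matches on either strand to the TATA box letters (TATAAA), to the letters CCAAT, or to the letters of a GC box (GGGCGG). Igf2 has 4 such windows, and the one with most matches is printed, chr7:142657447-142657746 on the minus strand, with 1 CCAAT match and 2 GC box matches.
Igf2: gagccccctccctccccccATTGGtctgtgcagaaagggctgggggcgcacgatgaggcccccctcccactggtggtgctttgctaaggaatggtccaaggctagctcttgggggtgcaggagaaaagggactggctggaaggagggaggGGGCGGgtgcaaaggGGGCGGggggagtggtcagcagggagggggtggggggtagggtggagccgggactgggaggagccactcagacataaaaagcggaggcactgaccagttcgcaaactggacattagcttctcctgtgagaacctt
The Igfbp2 window, chr1:72824230-72824529 on the plus strand, is the first of its 2 and holds 3 GC box matches.
Igfbp2: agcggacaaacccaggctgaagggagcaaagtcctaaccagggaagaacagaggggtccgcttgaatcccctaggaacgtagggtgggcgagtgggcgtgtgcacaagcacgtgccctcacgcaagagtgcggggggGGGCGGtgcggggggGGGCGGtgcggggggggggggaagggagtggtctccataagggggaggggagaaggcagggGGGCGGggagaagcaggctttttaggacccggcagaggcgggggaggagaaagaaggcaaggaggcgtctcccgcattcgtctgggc
The Igfbp6 window, chr15:102143936-102144235 on the plus strand, holds 1 TATA box match and 2 CCAAT matches.
Igfbp6: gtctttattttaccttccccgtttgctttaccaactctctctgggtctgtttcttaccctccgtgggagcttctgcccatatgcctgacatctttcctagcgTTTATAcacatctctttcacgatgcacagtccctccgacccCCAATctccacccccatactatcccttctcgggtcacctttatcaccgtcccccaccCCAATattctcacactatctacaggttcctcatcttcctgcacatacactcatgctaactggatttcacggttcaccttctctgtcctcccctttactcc
The 3 windows share no motif that all of them hold, and the letters are common. Over 32851 mouse promoter windows of this length, the TATA box letters were in 13.6%, CCAAT in 37.4% and the GC box letters in 35.7%. A match describes these letters only.

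The genes lie on 7 chromosomes of GRCm38. Igf1 is at chr10:87858265-87937042 and Igf2 at chr7:142650766-142666816. Igf1r (chr7:67952827-68233668) and Igf2r (chr17:12682406-12769664) are the longest. Igfbp2 (chr1:72824503-72852474) and Igfbp5 (chr1:72857932-72874884) are neighbours in tail-to-tail orientation, whereas Igfbp3 (chr11:7206086-7213923) and Igfbp4 (chr11:99041244-99054392) are far apart on 1 chromosome. Igfbp6 is at chr15:102144362-102149511 and Igfbp7 at chr5:77349240-77408041. Igfbp7 overlaps Polr2b on the opposite strand (mean normalized count 772), and Igf2r overlaps the antisense RNA Airn (45.63). The strand setting of the counting is not given in the sources used here, so reads in these overlaps are uncertain. Igf2 also overlaps Gm49394 on the same strand, which was not analysed here.

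In saline skin the binding proteins were the abundant RNAs of the axis. Per kilobase of exon, Igfbp7 had the highest median normalized count (1776, range 1202 to 2705), followed by Igfbp5 (1428), Igfbp3 (1040) and Igfbp6 (1025). Igfbp2 (505) and Igfbp4 (497) formed a second tier. Igf1 was next at 106, then the IGF2 scavenger Igf2r at 87.8, Igf2 at 24.6 and Igf1r last at 6.16 (3.9 to 10.8). Neighbours in this order overlapped between mice except at the steps from Igfbp4 to Igf1, from Igf2r to Igf2 and from Igf2 to Igf1r. Igfbp7 and Igfbp5 held the first 2 places and Igf1r the last in all 5 groups. Igf2 moved from rank 9 in saline skin to 8 after 2 weeks and 7 after 4 weeks of bleomycin, and was at 9 in both recovery groups. Exon lengths come from a later annotation release than the file and are approximate.

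**Figure D1:**
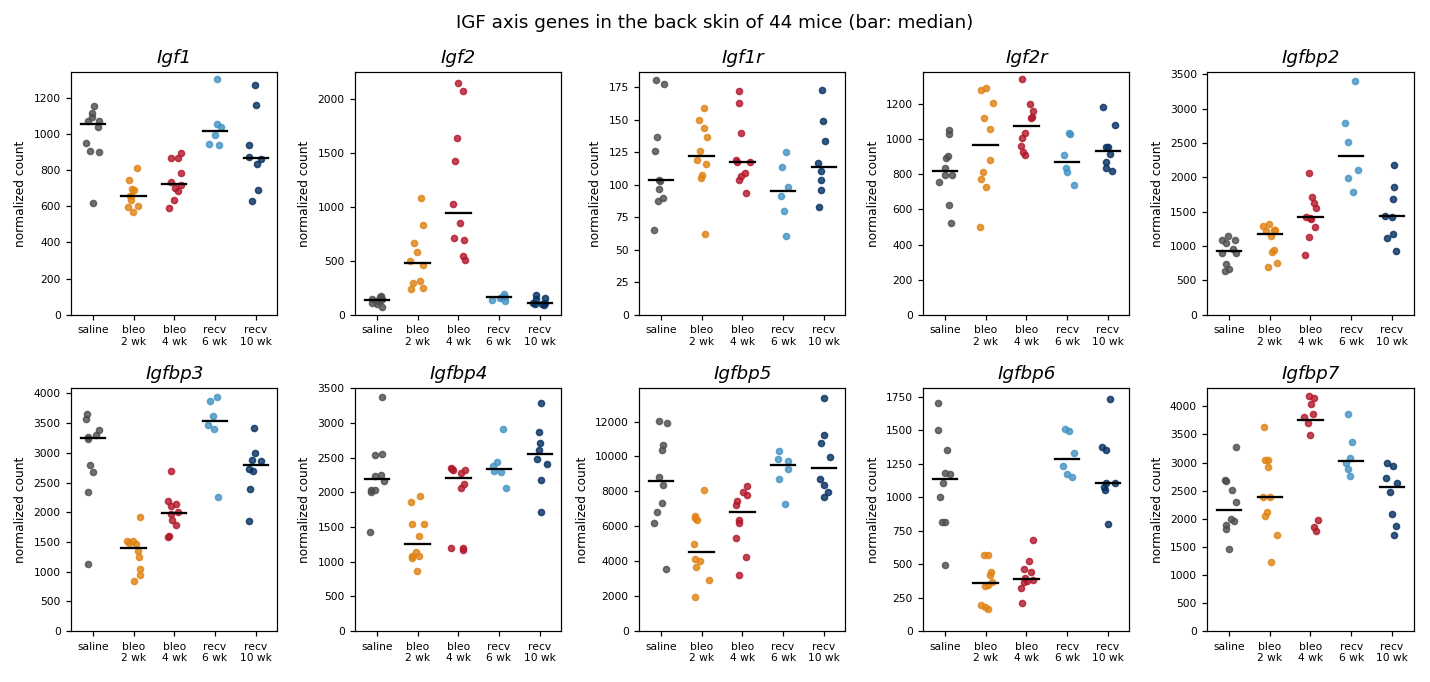
Normalized counts (linear axes from 0) of the 10 IGF axis genes in each of the 44 mice, by group, with a bar at the group median. Igf2 rises from a saline median of 141 to 941 after 4 weeks of bleomycin, Igfbp6 drops from 1140 to 390, and Igfbp2 is highest after 6 weeks of recovery, at 2316.

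The first question was what bleomycin did to the axis while it was being given. After 2 weeks, Igf2 rose 3.58-fold while the binding proteins Igfbp3, Igfbp4, Igfbp5 and Igfbp6 fell. After 4 weeks, Igf2 had risen 7.89-fold, Igfbp2 had risen and Igfbp6 was still low, whereas neither Igfbp4 nor Igfbp5 was called. The receptors were not called at either time. At 2 weeks 5 of the 10 genes were called, 1 higher and 4 lower, where 16.7% of all genes tested were called (9.3% higher and 7.43% lower). At 4 weeks 3 of 10 were called, 2 higher and 1 lower, against 17.9% of all genes (10.5% higher and 7.37% lower). The median log2 change over the 10 genes was -0.24 at 2 weeks and -0.06 at 4 weeks, with a median of 0 over all genes in both.

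Igf2, the fetal-type ligand, had normalized counts of 70.3 at the lowest, 141 at the median and 171 at the highest in saline skin. After 2 weeks of bleomycin the values were 235, 481 and 1086, and after 4 weeks 508, 941 and 2152. All 20 bleomycin-treated mice lay above all 10 saline mice. The log2 change was 1.84 (SE 0.25, adjusted p = 7.06e-08) at 2 weeks and 2.98 (SE 0.25, adjusted p = 2.45e-13) at 4 weeks. A rise with no overlap was seen in 3.13% of all genes at 2 weeks and 3.73% at 4 weeks. The spread between treated mice was wide: at 4 weeks mice 5 and 8 had 2081 and 2152, whereas mice 1 and 6 had 542 and 508.

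Igf1 went the other way by less than the fold threshold. Its saline counts were 621, 1054 and 1157 (lowest, median and highest), against 567, 657 and 810 after 2 weeks and 589, 725 and 895 after 4 weeks. All 10 mice at 2 weeks lay below the saline median, and the ranges overlapped only through saline mouse 1, whose 621 was far under the next saline value of 899. The log2 change was -0.57 (SE 0.1, adjusted p = 2.05e-05), a 1.48-fold difference that was not called, and -0.40 at 4 weeks (adjusted p = 0.00175). Without saline mouse 1 and 2-week mouse 2 the 2-week value was -0.65 (adjusted p = 1.03e-06), which passed.

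The balance between the ligand RNAs shifted toward Igf2 under bleomycin. Per kilobase of exon, Igf2 stood at 0.163 to 0.281 times Igf1 in saline skin, with a median of 0.224. After 2 weeks the ratio ran from 0.591 to 2.85 (median 1.25) and was above 1 in 6 of 10 mice. After 4 weeks it ran from 1.08 to 5.08 (median 2.28) and was above 1 in all 10. Where the ratio passes 1 depends on the approximate exon lengths, 5723 bases for Igf2 and 9904 for Igf1. By normalized count alone, Igf2 was below Igf1 in 4-week mice 1 (542 and 865), 4 (849 and 895) and 6 (508 and 687). The medians of Igf2 and Igf1 were then 481 and 657 at 2 weeks, and 941 and 725 at 4 weeks. In the recovery groups it was above 1 in none of the mice, with medians of 0.266 at 6 weeks and 0.244 at 10 weeks.

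**Figure D2:**
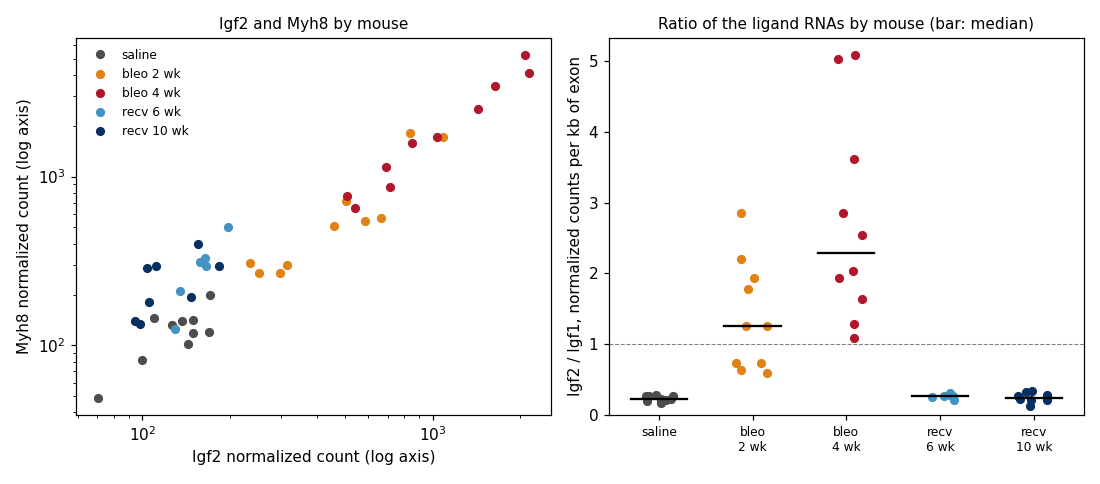
Left, Igf2 against Myh8 normalized counts in each of the 44 mice, both axes logarithmic. Right, the per-mouse ratio of Igf2 to Igf1, each in normalized counts per kilobase of exon, with a bar at the group median and a dashed line at 1. Both genes are highest in the bleomycin groups, the recovery mice have Myh8 medians of 304 and 240 against 126 in saline skin where their Igf2 medians are 161 and 108 against 141, and all 10 mice treated for 4 weeks lie above a ratio of 1.

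Neither receptor RNA was called under bleomycin. Igf1r, the signalling receptor, had counts of 65.5, 103 and 181 in saline skin, 62.4, 122 and 159 at 2 weeks and 93.8, 118 and 172 at 4 weeks. These ranges overlapped almost fully, with a log2 difference of 0.10 at 2 weeks (approximate 95% interval -0.21 to 0.41, adjusted p = 0.688) and 0.13 at 4 weeks (-0.18 to 0.44, adjusted p = 0.562). Igf2r had 524, 817 and 1053 in saline skin and 910, 1078 and 1341 at 4 weeks. Its log2 difference at 4 weeks was 0.41 (adjusted p = 0.00833), under the fold threshold, and 0.20 at 2 weeks (adjusted p = 0.21).

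Igfbp6, the IGF2-preferring binding protein, fell most among the binding proteins. Its counts were 495, 1140 and 1702 in saline skin, 163, 357 and 570 after 2 weeks, and 211, 390 and 679 after 4 weeks. Saline mouse 1 held the 495, and the next saline value was 812, so that all 20 bleomycin-treated mice lay below the other 9 saline mice. The log2 change was -1.69 at 2 weeks (SE 0.21, adjusted p = 8.42e-09) and -1.40 at 4 weeks (SE 0.21, adjusted p = 4.85e-07), or 3.23-fold and 2.64-fold lower. Without the 2 poorly correlated mice the values were -1.85 and -1.52. The share of all genes that fell without overlap, with or without saline mouse 1, was not counted. This holds also for Igf1 above and Igfbp3 below.

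Igfbp3, the main carrier of the ligands in blood, had counts of 1124, 3254 and 3660 in saline skin against 845, 1405 and 1919 after 2 weeks and 1591, 1985 and 2691 after 4 weeks. Only saline mouse 1 reached into the 2-week range, and the next saline value was 2340. Igfbp3 fell 2.16-fold at 2 weeks (log2 -1.11, SE 0.15, adjusted p = 1.07e-07). At 4 weeks the value was -0.51 (adjusted p = 0.00691), under the fold threshold, but -0.66 (adjusted p = 1.24e-05) and called without saline mouse 1 and 2-week mouse 2.

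Igfbp4 and Igfbp5 were called at 2 weeks only. Igfbp4, which releases IGF when it is cut by pappalysin, had counts of 1424, 2196 and 3375 in saline skin and 861, 1252 and 1944 at 2 weeks, with some overlap (log2 -0.76, adjusted p = 7.34e-05). Igfbp5, which binds to extracellular matrix and is often raised in fibrotic tissue, had 3570, 8579 and 12042 in saline skin and 1969, 4551 and 8066 at 2 weeks, again overlapping (log2 -0.84, SE 0.2, adjusted p = 0.000885). The values at 4 weeks were -0.25 (adjusted p = 0.201) for Igfbp4 and -0.40 (adjusted p = 0.115) for Igfbp5. The 4-week group was split for Igfbp4: mice 1, 2 and 3 had 1203, 1175 and 1199, below the other 7 at 2057 to 2346. Without these 3 mice the log2 difference of Igfbp4 was 0.03 (adjusted p = 0.898).

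Igfbp2 and Igfbp7 did not fall. Igfbp2, a binding protein abundant in fetal life, had counts of 641, 933 and 1144 in saline skin and 870, 1416 and 2067 at 4 weeks, with overlapping ranges (log2 0.65, SE 0.15, adjusted p = 0.000488). At 2 weeks its log2 difference was 0.22 (adjusted p = 0.25). Igfbp7 had 1454, 2148 and 3271 in saline skin and 1788, 3756 and 4178 at 4 weeks, a log2 difference of 0.50 (SE 0.17, adjusted p = 0.0174) that did not pass the fold threshold. Mice 1, 2 and 3 of that group had 1983, 1852 and 1788 against 3487 to 4178 in the other 7, and without them Igfbp7 was called at 0.82 (adjusted p = 5.22e-05). The make-up of the binding protein RNAs differed too: of their summed per-kilobase level, Igfbp6 took a median of 15.9% in saline skin, 7.06% at 2 weeks and 6.17% at 4 weeks, whereas Igfbp7 took 28.5%, 44.9% and 47.4%. A share also moves with the other genes of the sum, whose medians were 6385, 4250 and 6689 in the same order. At 2 weeks Igfbp7 itself differed from saline by 0.09 (adjusted p = 0.705).

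**Figure D3:**
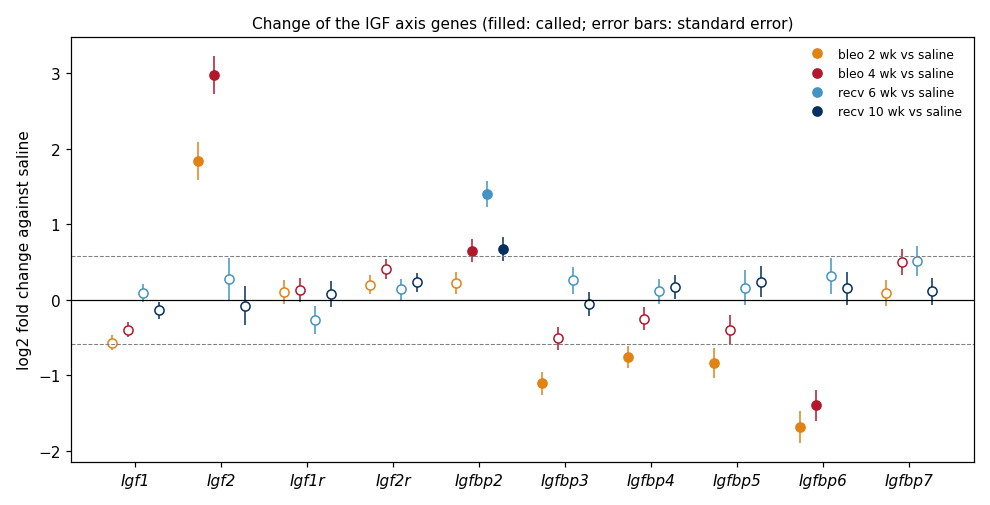
Log2 fold change against saline skin for each of the 10 genes at 2 and 4 weeks of bleomycin (bleo) and 6 and 10 weeks of recovery (recv). Filled points were called, error bars are standard errors, and dashed lines mark the fold threshold of 0.585. Igf2 stands at 1.84 and 2.98 under bleomycin and near 0 in recovery, and Igfbp2 peaks at 1.40 after 6 weeks of recovery.

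Markers of several cell types also differed under bleomycin. Of 7 fibroblast markers, 3 were lower at 2 weeks (Pdgfra, Col1a1 and Col1a2) and 1 at 4 weeks (Pdgfra), with summed counts of 76156 to 164100 in saline skin, 40346 to 121222 at 2 weeks and 67700 to 166708 at 4 weeks. Dcn, at -0.55 at 4 weeks, was a second call there without 4-week mice 1, 2 and 3 (-0.68, adjusted p = 0.000436) and without saline mouse 1 and 2-week mouse 2 (-0.66). All 4 of the hair follicle markers in the table fell at both times, from a median sum of 36771 in saline skin to 17.2 and 37.2. Of 6 macrophage markers 3 rose at both times (Adgre1, Cd68 and Lyz2) and 1 fell (Cd163). None of the 5 keratinocyte markers was called by limma, edgeR or DESeq2, with 1 and 2 at an unadjusted p below 0.05. Of 5 endothelial markers 2 rose at each time, of 4 Schwann cell markers 1 and then 4 rose, of 5 T cell markers 3 and then 1 rose, and of 4 mural cell markers 1 rose at each. Fat cell markers were lower, 2 of 5 at 2 weeks and 3 of 5 at 4 weeks. Without 4-week mice 1, 2 and 3 the fat cell markers called at 4 weeks were 2, with Plin1 at -0.45 (adjusted p = 0.126), and the endothelial marker Cdh5 also rose (0.63, adjusted p = 0.0034). Without saline mouse 1 and 2-week mouse 2, the mural cell marker Rgs5 (0.52) was not called at 4 weeks, and the endothelial marker Tek was called lower (-0.59). With the group means taken off, the mean log2 levels of the marker lists were also correlated with each member over the 44 mice. Igf2, Igfbp3, Igfbp4, Igfbp5 and Igfbp6, the members called at 2 weeks, gave r = 0.41, 0.53, 0.30, 0.80 and 0.68 with the fibroblast list. In the same order the Schwann cell list gave 0.32, 0.61, 0.25, 0.56 and 0.70, and the hair follicle list -0.11, -0.38, 0.21, -0.18 and -0.15. The mural cell list gave 0.46, 0.37, 0.31, 0.68 and 0.52, and the muscle list 0.50, 0.66, -0.09, 0.55 and 0.57. For the endothelial list the values were 0.21, 0.47, 0.15, 0.59 and 0.50. The fat, T cell, macrophage and keratinocyte lists gave -0.56 to 0.51. The part of these cell types in the changes of the IGF genes was not tested.

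Direct comparison of the bleomycin groups asked which members kept moving between 2 and 4 weeks. Igf2 rose further by 1.14 on the log2 scale (adjusted p = 0.00391) and Igfbp3 rose by 0.60 (adjusted p = 0.0131). These were 2 of 10 genes called, both higher, where 2.35% of all genes were called (1.49% higher and 0.863% lower). The median over the 10 genes was 0.42, against 0 over all genes. The Igfbp3 call was lost without saline mouse 1 and 2-week mouse 2 (0.53), and edgeR and DESeq2 called 1 member each. Igfbp4, at 0.51 (adjusted p = 0.0333), and Igfbp7, at 0.41 (adjusted p = 0.152), were not called. Without 4-week mice 1, 2 and 3 both were, at 0.79 (adjusted p = 0.000452) and 0.73 (adjusted p = 0.00304), which brought the members called to 4.

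The next question was what remained once bleomycin was stopped. After 6 weeks without the drug Igf2 had fallen and Igfbp3 and Igfbp6 had risen to levels that overlapped with saline skin. Igfbp2 alone among the 10 was called against saline in recovery, at both 6 and 10 weeks. Between the 4-week bleomycin group and 6 weeks of recovery 4 members were called, 3 higher and 1 lower, where 11.9% of all genes were called (4.8% higher and 7.14% lower). Against saline 1 member was called higher at 6 weeks, where 5.04% of all genes were called (3.33% higher and 1.71% lower), and 1 at 10 weeks, where 3.05% were (2.05% higher and 0.998% lower). The median log2 difference from saline over the 10 genes was 0.21 at 6 weeks and 0.13 at 10 weeks, with 0 over all genes.

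Igf2 in recovery had counts of 130, 161 and 197 at 6 weeks and 94, 108 and 184 at 10 weeks. Its ranges overlapped with saline and lay wholly below the 4-week bleomycin group. The share of all genes with no overlap between the recovery and 4-week bleomycin groups was not counted. Relative to the 4-week bleomycin group, Igf2 at 6 weeks of recovery fell by 2.7 on the log2 scale (SE 0.28, adjusted p = 6.84e-10), or 6.5-fold. It differed from saline by 0.28 at 6 weeks (adjusted p = 0.578) and by -0.08 at 10 weeks (adjusted p = 0.922).

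Igfbp6 rose 3.27-fold over the same step (log2 1.71, SE 0.24, adjusted p = 3.99e-07). Its counts of 1148, 1283 and 1512 at 6 weeks lay above every 4-week bleomycin mouse. Igfbp3 rose by 0.77 (adjusted p = 0.000878), with counts of 2252, 3538 and 3935 at 6 weeks. Igf1 had 938, 1016 and 1307 at 6 weeks, above all 10 mice at 4 weeks of bleomycin, but its difference of 0.49 (adjusted p = 0.00184) stayed under the fold threshold. None of Igfbp6, Igfbp3 and Igf1 was called against saline at 6 or 10 weeks. How common such a lack of overlap with the 4-week bleomycin group was among all genes was not counted.

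Igfbp2 was higher still in the mice left for 6 weeks after the drug. Its counts at 6 weeks of recovery were 1793, 2316 and 3396, with no overlap with saline, and 935, 1432 and 2178 at 10 weeks, where the ranges overlapped. The log2 change from saline was 1.40 at 6 weeks (SE 0.17, adjusted p = 2.06e-07), 2.64-fold, and 0.67 at 10 weeks (SE 0.16, adjusted p = 0.00698). A rise with no overlap was seen in 1.08% of all genes at 6 weeks. Igfbp2 at 6 weeks also exceeded the 4-week bleomycin group, by 0.75 (adjusted p = 0.000876). The 10-week call was lost without 10-week mouse 7, which had the highest value of that group (0.58, adjusted p = 0.0277). Mice 4 and 7, with the highest Igfbp2 counts there (1865 and 2178), also correlated least with that group (median r of 0.947 and 0.954). Their hair follicle marker sums were 1168 and 2500, against a group median of 81705. The part of this difference in the Igfbp2 values was not tested.

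Between 10 and 6 weeks of recovery 0 of 10 members were called by limma, where 0.088% of all genes were called (0.0176% higher and 0.0704% lower). At an unadjusted p below 0.05 there was 1 member, edgeR called 0 and DESeq2 called 1. Igfbp2 had the largest difference, -0.74 (adjusted p = 0.0777). It was called at -0.74 (adjusted p = 0.0435) without saline mouse 1 and 2-week mouse 2. Fibroblast marker sums ran from 101448 to 167554 (median 137122) at 6 weeks and from 59215 to 98044 (median 71227) at 10 weeks. Of the 7 markers limma called 0 between these groups, with a median log2 difference of -0.41. Without 4-week mice 1, 2 and 3, Pdgfrb was at -0.43, Lum at -0.41, Thy1 at -0.36, Dcn at -0.09 and Pdgfra at 0.09. Pdgfra was lower than saline at 6 and 10 weeks in that fit (-1.02 and -0.93). Over the 44 mice, with the group means taken off, the mean log2 level of the fibroblast markers correlated with Igfbp2 at r = 0.54. The mural cell list gave 0.51 and the remaining lists -0.24 to 0.38. The part of fibroblasts in the Igfbp2 levels was not tested. Schwann cell marker sums also differed in recovery, with 4 of 4 markers higher than saline at 6 weeks (sums of 3838 to 6597, against 1402 to 3979 in saline skin) and 3 of 4 at 10 weeks, or 1 of 4 at 10 weeks without saline mouse 1 and 2-week mouse 2. The fibroblast markers Col1a1 and Col1a2 were not called between the recovery groups (-1.25, adjusted p = 0.0523, and -1.16, adjusted p = 0.0768), but were without saline mouse 1 and 2-week mouse 2 (adjusted p = 0.0224 and 0.031), and Col1a1 also without 4-week mice 1, 2 and 3 (adjusted p = 0.0386). Among the receptors in recovery, Igf1r differed from saline by -0.27 (adjusted p = 0.392) and 0.08 (adjusted p = 0.882), and Igf2r by 0.14 (adjusted p = 0.598) and 0.23 (adjusted p = 0.369).

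Igfbp7 at 6 weeks had counts of 2761, 3035 and 3871 and differed from saline by 0.51 (SE 0.2, adjusted p = 0.09). With the replicate number as a block it was called, at 0.64 (adjusted p = 0.0155), but the numbers do not pair the mice. Igfbp4 and Igfbp5 differed from saline by at most 0.24 in recovery, and both by less than the fold threshold from 4 weeks of bleomycin (0.36, adjusted p = 0.13, and 0.57, adjusted p = 0.0684).

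The partners of the binding proteins and ligands gave 1 call in each comparison with saline, out of 7 tested of 9 listed, where 16.7%, 17.9%, 5.04% and 3.05% of all genes were called. Of the 7, edgeR called 1, 2, 1 and 2 and DESeq2 2, 1, 1 and 2. Igfbp1 and Igfbpl1, with mean normalized counts of 0.227 and 0.244, were too low to test. Igfals, the acid-labile subunit that joins IGFBP3 and the ligand in the blood complex, fell at 2 weeks (log2 -1.05, adjusted p = 5.38e-06) and at 4 weeks (-0.83, adjusted p = 0.000179), with group medians of 115, 54.2, 67.7, 113 and 156 in order from saline to 10 weeks of recovery. Like Igfbp3 and Igfbp6 it was higher at 6 weeks of recovery than in the 4-week bleomycin group (0.75, adjusted p = 0.00463). Stc1, a stanniocalcin of the family that inhibits pappalysins, was lower at 6 weeks (-1.10, adjusted p = 0.00122) and 10 weeks of recovery (-1.47, adjusted p = 7.79e-06), with medians of 92.7 in saline skin, 47.7 and 34.4. The protease Adam12 was at -0.71 at 10 weeks (adjusted p = 0.0501), and at -0.71 (adjusted p = 0.0424) and called without 4-week mice 1, 2 and 3. Stc2, the relative of Stc1, differed by 0.57 at 4 weeks (adjusted p = 0.000808), just under the fold threshold. It was called at 0.61 without 4-week mice 1, 2 and 3. The pappalysin Pappa differed by -0.37 at 2 weeks (adjusted p = 0.217) and 0.29 at 4 weeks (adjusted p = 0.349). The list's median log2 change was -0.42, 0.12, -0.17 and -0.20 in the 4 comparisons with saline, against 0 over all genes.

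The signalling genes below the receptor were not called. Of 23 genes from the insulin receptor to the MAP kinases, limma called 0 in each of the 4 comparisons with saline, and edgeR and DESeq2 also called 0. At an unadjusted p below 0.05 there were 9, 8, 4 and 3 genes. The list's medians lay between -0.03 and 0.04. Irs1, an adaptor that IGF1R phosphorylates, was at -0.45 at 2 weeks (adjusted p = 0.000176) and -0.51 at 4 weeks (adjusted p = 2.9e-05), and without 4-week mice 1, 2 and 3 it was called at -0.60 (adjusted p = 1.07e-05). Between the 6-week recovery and 4-week bleomycin groups 1 gene was called, the adaptor Grb14, higher in recovery (0.59, adjusted p = 0.00864), where 11.9% of all genes were called. Without 4-week mice 1, 2 and 3 Grb14 was at 0.53 (adjusted p = 0.043) and not called, and Irs1 was called in its place (0.61, adjusted p = 0.00012).

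Among growth hormone signalling genes and IGF2 mRNA-binding proteins 8 of 10 were tested. Jak2 was not analysed here, and Igf2bp1 had a mean normalized count of 1.28. Socs3, a feedback inhibitor of cytokine signalling, was the 1 gene called at each bleomycin time, where 16.7% and 17.9% of all genes were called, with log2 changes of 0.87 (adjusted p = 6.46e-09) and 1.19 (adjusted p = 1.72e-12). Its medians were 298 in saline skin, 542 at 2 weeks and 656 at 4 weeks, then 380 and 371 in recovery. Igf2bp2, which binds Igf2 mRNA, was lower at 10 than at 6 weeks of recovery (-0.71, adjusted p = 0.0122). Against saline in recovery limma, edgeR and DESeq2 called 0 of the list, with 2 genes at an unadjusted p below 0.05 at each time.

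Igf2 is an imprinted gene, expressed mainly from the paternal copy in most tissues, and H19 is its maternally expressed neighbour. Of 8 imprinted growth genes 4 were called at 2 weeks (2 higher and 2 lower), 3 at 4 weeks (2 higher and 1 lower), 1 at 6 weeks of recovery and 0 at 10 weeks, where 16.7%, 17.9%, 5.04% and 3.05% of all genes were called. H19 rose with Igf2, by 1.15 at 2 weeks (adjusted p = 3.06e-06) and 1.32 at 4 weeks (adjusted p = 2.06e-07), and at 6 weeks of recovery it was lower than in the 4-week bleomycin group (-1.06, adjusted p = 0.000221). The H19 medians were 4051, 8331, 9335, 4276 and 3974 in order from saline to 10 weeks of recovery. Mest rose at both times (1.03, adjusted p = 0.00416, and 0.71, adjusted p = 0.0489). Dlk1, a marker of fat precursors, fell at both (-2.0, adjusted p = 3.94e-06, and -0.94, adjusted p = 0.0214). Cdkn1c fell at 2 weeks (-0.61, adjusted p = 0.00238), a call lost without saline mouse 1 and 2-week mouse 2 (-0.46), where Plagl1 was called instead (0.65, against 0.50 in all mice). Peg3 was lower at 6 weeks of recovery (-0.65, adjusted p = 0.0137). Without 4-week mice 1, 2 and 3 only H19 of these 8 was called at 4 weeks (1.42, adjusted p = 4.8e-07), with Mest at 0.69 (adjusted p = 0.095) and Dlk1 at -0.56 (adjusted p = 0.218). At 10 weeks of recovery edgeR called 0 and DESeq2 0 of the list, with 1 at an unadjusted p below 0.05.

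The genes most like each member were sought by the Pearson correlation over the 44 mice with the group means taken off, among 11152 genes with a mean normalized count of at least 100. Libraries share depth and tissue make-up, so the values are descriptions. Nearest to Igf2 were Myh8, the perinatal myosin heavy chain (r = 0.90), Actc1, the actin of heart and developing muscle (r = 0.88), and Casq2, a calcium store protein of muscle (r = 0.77). Without 4-week mice 1, 2 and 3 these were 0.89, 0.88 and 0.77. Within single groups the correlation of Igf2 with Myh8 was 0.81 in saline skin, 0.93 at 2 weeks, 0.98 at 4 weeks, 0.95 at 6 weeks and 0.62 at 10 weeks of recovery. Spearman's rho was 0.53, 0.87, 0.96, 0.83 and 0.76 in the same order. For Actc1 the within-group r ran from 0.66 in saline skin to 0.99 at 6 weeks of recovery. For Casq2 it was -0.14 in saline skin (rho = 0.13) and 0.67 to 0.97 in the other 4 groups.

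Myh8 had counts of 48.9, 126 and 199 in saline skin, 268, 527 and 1819 at 2 weeks and 656, 1645 and 5270 at 4 weeks. Both bleomycin groups lay above saline throughout. The log2 change was 2.23 (adjusted p = 1.92e-06) and 3.90 (adjusted p = 3.54e-12), and Actc1 rose by 2.53 and 3.82. In recovery Myh8 had medians of 304 and 240, and at 6 weeks it was still higher than in saline skin by 1.22 (adjusted p = 0.0493), a call lost without saline mouse 1 and 2-week mouse 2 (1.09, adjusted p = 0.0751). Igf2 was not called there. Of the 5 genes of adult muscle (Acta1, Ckm, Myh4, Mylpf and Tnnt3) limma called 0 in any comparison with saline, as did edgeR and DESeq2, and 0 had an unadjusted p below 0.05. Their summed median was 186923 in saline skin, 163056 at 2 weeks and 153942 at 4 weeks. Without saline mouse 1 and 2-week mouse 2, Myh4 was called lower at 4 weeks (-0.62, adjusted p = 0.0396). With the group means taken off, the mean log2 level of the 5 adult muscle genes correlated with Igf2 at r = 0.50 over the 44 mice. It was not particular to Igf2: Igfbp3 gave 0.66, Igfbp6 0.57 and Igfbp5 0.55. The remaining members gave -0.09 to 0.37. The part of muscle in the Igf2 values was not tested beyond these values.

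The binding proteins had neighbours of other kinds. Igfbp7 was nearest to Plvap (r = 0.93), an endothelial gene, and to the basement membrane proteoglycan Hspg2 (r = 0.92). Igfbp6 was nearest to the secreted protease Htra3 (r = 0.86), which itself fell at 2 weeks (log2 -1.25) and 4 weeks (-1.14). Igfbp5 was nearest to Angptl2 (r = 0.87), Igfbp3 to Tgfb2 (r = 0.79) and Igfbp4 to Cbx6 (r = 0.88). Igfbp2 was nearest to Emid1 (r = 0.74), Twist2 (r = 0.73) and C1qtnf5 (r = 0.72). Like Igfbp2, C1qtnf5 was called at the last 3 times, with log2 changes of -0.18 at 2 weeks, 0.74 at 4 weeks, 1.79 at 6 weeks and 1.04 at 10 weeks of recovery. Igf1 was nearest to Reps2 (r = 0.72). Igf1r and Igf2r were nearest to genes of wide expression, Herc2 (r = 0.87) and Akap2 (r = 0.86).

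Between members, 45 pairs were compared over 41 mice, leaving out 4-week mice 1, 2 and 3, with the group means taken off and 100000 permutations within groups. In 7 pairs both Pearson's r and Spearman's rho passed a Benjamini-Hochberg adjusted p of 0.05, and all 7 were positive. The median r over the 45 pairs was 0.15. Pairs outside the 10 genes were not run through these permutations, so the share of all gene pairs that would pass is not known. Over the same 41 mice Igf1r reached r = 0.88 with Herc2 and Igf2r 0.88 with Akap2, their nearest genes above. The part of shared depth and tissue make-up in the 7 pairs was not tested. The receptors Igf1r and Igf2r varied together most (r = 0.67, permutation p = 3e-05, adjusted p = 0.00135; rho = 0.52, adjusted p = 0.00911), with r = 0.49 without the 2 mice farthest from the median. Igfbp4 and Igfbp7 followed (r = 0.65, adjusted permutation p = 0.00375, and r = 0.52 without the 2 farthest). Igf2 varied with Igfbp5 (r = 0.59, adjusted permutation p = 0.00375, and 0.59 without the 2 farthest), and Igfbp3 with Igfbp6 (r = 0.57, adjusted permutation p = 0.00585, and 0.55). The others were Igf2r with Igfbp5 (r = 0.63), Igfbp2 with Igfbp7 (r = 0.55) and Igfbp6 with Igfbp7 (r = 0.54). Igfbp3 and Igfbp5 had r = 0.60 but rho = 0.28 (adjusted permutation p = 0.204), and the lowest pair, Igf1r with Igfbp7, had r = -0.41 (adjusted permutation p = 0.0756) and rho = -0.51 (adjusted permutation p = 0.0112), a negative relation that passed by rank alone, with r = -0.37 without the 2 farthest.

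**Figure D4:**
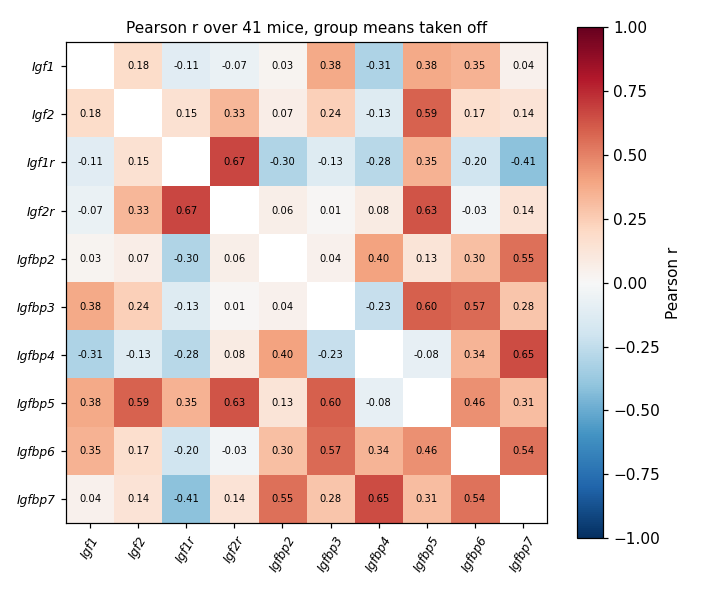
Pearson r between each pair of the 10 IGF axis genes over 41 mice on log2(normalized count + 1) with group means taken off, from blue (negative) to red (positive). The receptors Igf1r and Igf2r form the strongest pair at 0.67, and Igf1r with Igfbp7 the lowest at -0.41.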

How the data were processed

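A piece of back skin from each of the 44 mice gave 1 stranded poly(A) library, and the labels number separate mice within each group. The authors aligned the paired-end reads to mm10 with STAR 2.4.0 and deposited gene counts divided by DESeq2 (1.12.3) size factors, which were treated as a signal. The tool that counted reads, the annotation it used and its strand setting are not given in the sources used here. Gene identifiers were matched to symbols through GENCODE M21 (42929 of 43411, 98.9%). Dividing each library by the value of 1 read gave whole reads for 100.0% of values (tolerance 0.02), and no pair of libraries agreed within sampling noise. Sums of reads per library gave the depth, and their number limits precision for counting error only.

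The main test was limma (3.58.1, R 4.3.3) with a mean-variance trend on log2(normalized count + 1), pseudocount 1, over the 17037 genes with a mean normalized count above 3. All 5 groups entered 1 fit without covariates. A call needed an absolute log2 change above 0.585 and a Benjamini-Hochberg adjusted p below 0.05. The methods of the study used DESeq2 with the same criteria; because the deposited values are not raw counts, edgeR (4.0.16) and DESeq2 (1.42.0) on the recovered reads were alternatives. The fitting script was tested on simulated data. Other alternatives were a pseudocount of 0.1, no filter or at least 10 in at least 6 samples, a log2 threshold of 0.5 or none, a fit of only the compared groups, a replicate block, quantile and trimmed-mean scaling, 42 samples (without saline mouse 1 and 2-week mouse 2) and each mouse left out in turn. A fit of 41 samples, without 4-week mice 1, 2 and 3, was added after seeing the data.

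The 10 members and all lists were chosen with earlier results of these data known. All 10 members were named, with the listed pathway genes called against saline and, for each member, up to 3 genes of highest correlation. Genes named beside these (Stc2, Pappa, Adam12, Irs1, Plagl1 and the marker genes) were chosen after their values were seen. Marker lists were fibroblast, macrophage, endothelium, keratinocyte, hair follicle (4 of 6 in the table, Krt85 and Tchh not analysed here), fat, muscle, mural, T cell and Schwann cell. Promoter windows came from RefSeq.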

Additional observations from a re-analysis of the deposited data

Results flagged for a closer look

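Of 50 sets of 1 gene in 1 group, 5 held a mouse that lay apart from the rest of its group by Dixon's criterion, which chance meets in about 1 of 20 sets. In Igf1, saline mouse 1 had a normalized count of 621 where the other saline mice had 899 to 1157. In the 6-week recovery group, mouse 5 had an Igf1 count of 1307 and the others 938 to 1058. For Igf1r, mouse 2 of the 2-week bleomycin group had 62.4 and the others 105 to 159. For Igfbp3, saline mouse 1 had 1124 and the others 2340 to 3660, and mouse 4 of the 6-week recovery group had 2252 and the others 3395 to 3935. Saline mouse 1 and 2-week mouse 2 were also the mice that correlated least with their own groups.

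In limma's direct test of the 4-week against the 2-week bleomycin group, 2 genes were called. Age cannot be told apart from longer treatment in this comparison. Igf2 was higher at 4 than at 2 weeks by 1.14 on the log2 scale (adjusted p = 0.00391) and kept this call under every alternative. Igfbp3 was higher at 4 than at 2 weeks by 0.60 (adjusted p = 0.0131), and lost the call without 2-week mouse 2, 4 or 5 or 4-week mouse 6 (0.53 to 0.57).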

How the results depend on the processing

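Igf2 kept its direction and its call under every alternative at 2 weeks, 4 weeks, between them and between the 4-week bleomycin and 6-week recovery groups. The number of members called at 4 weeks against saline was 5 with a log2 threshold of 0.5 and 7 with no fold threshold. Between 4 and 2 weeks of bleomycin it was 1 with edgeR, with DESeq2 and in 42 samples, 4 in 41 samples, and 1 to 3 when single mice were left out. At 10 weeks of recovery against saline it was 0 to 1 when single mice were left out. Between the recovery groups it was 1 with DESeq2 and in 42 samples, and 0 to 1 when single mice were left out (1 without 10-week mouse 4 or 7).

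Differences near 0 changed sign. Igf1r between 4 and 2 weeks was -0.07 in 42 samples, -0.09 in 41 samples and -0.07 to 0.08 without single mice (below 0 without 2-week mouse 2 or 4-week mouse 2 or 3), and at 10 weeks of recovery against saline -0.01 to 0.15 without single mice. Igfbp3 at 10 weeks of recovery was -0.21 to 0.02 without single mice, and Igfbp4 at 4 weeks was 0.03 in 41 samples. Igfbp7 in the 6-week recovery group against 4 weeks of bleomycin was -0.06 with quantile scaling, 0.00 with trimmed means, -0.07 with edgeR, -0.06 with DESeq2, -0.31 in 41 samples and -0.08 to 0.06 without single mice. The causes were not tested.

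Mice of the same number did not deviate together: the 78 correlations of same-numbered mice ran from -0.69 to 0.38 (median 0) and the 690 of other numbers from -0.65 to 0.64. With the replicate number as a block, 2 members were called at 6 weeks of recovery (Igfbp7 added), Igfbp5 was called in the 6-week recovery group against 4 weeks of bleomycin (0.72), Igfbp3 at 10 weeks was 0.00 and Igfbp5 between the recovery groups -0.03.

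Single genes changed in other cases. Igf1 at 2 weeks was called without saline mouse 1 (-0.64) or 2-week mouse 1 (-0.60), Igfbp3 at 4 weeks without saline mouse 1 (-0.66), Igfbp7 at 4 weeks without 4-week mouse 2 or 3 (0.59) and Igfbp4 between the bleomycin groups without 4-week mouse 2 (0.59). Apart from leaving out single mice, 814 single-gene values kept direction and call, 13 gained the call, 3 lost it and 10 changed sign. Over all genes, the calls between the recovery groups were 15, but 56 with only the groups compared, 63 with DESeq2 and 58 in 42 samples, and at 10 weeks of recovery against saline 519, but 326 with only the groups compared. With no fold threshold they were 6063, 6242, 1547 and 994 in the 4 comparisons with saline, 956 between the bleomycin groups and 4260 in the 6-week recovery group against the 4-week bleomycin group, where the main values were 2851, 3053, 859, 519, 400 and 2035. The share of calls that were higher moved from 67.2% to 56.6% with DESeq2 and 52.3% in 42 samples at 10 weeks of recovery, from 66.0% to 55.9% with DESeq2 at 6 weeks, and from 63.2% to 52.9% with edgeR, 52.8% with DESeq2 and 76.3% in 41 samples between the bleomycin groups.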
